A study of Mus musculus with 6 samples.

Results

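The genes described here encode ATP synthase, the rotary enzyme of the inner mitochondrial membrane, and the proteins that fold that membrane into cristae. They were taken by symbol from the table of the whole series: every row beginning with *Atp5* (18 rows) and every row matching 1 of 18 further symbols for the inhibitor, the assembly factors, the MICOS complex, the fusion machinery and the prohibitins. Of the 22611 rows, 35 matched, and *Minos1* matched no row. The rule goes by symbol alone and uses no measured value.

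ATP synthase has a soluble F1 part, in which the beta subunits make ATP, and a membrane part whose ring of c subunits turns as protons pass, with a peripheral stalk holding the parts together. Rows of paired enzymes bend the inner membrane along the edges of the cristae, while MICOS holds the narrow junctions at which cristae open and OPA1 fuses inner membranes and keeps the junctions tight. Absorptive enterocytes of the duodenum are rich in mitochondria, and ESRRA, the estrogen-related receptor alpha, is a nuclear receptor best known for driving genes of oxidative metabolism.

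RNA-seq was performed on duodenal epithelium from 3 wild-type (WT) mice and 3 *Esrra*-/- mice (labelled ESRRAKO), with 1 library per mouse, to ask which transcripts differ when ESRRA is lost. All mice were littermates fed a high-fat diet for several weeks, and the epithelium was released from the proximal small intestine with EDTA. The *Esrra*-/- allele is a germline null, so effects arising in the intestine and effects of loss in other organs cannot be told apart. The colony also carried a Villin-CreERT2 transgene, and whether these 6 mice carried it, their ages and the sex of each are not given in the sources used here, although both sexes entered the *Esrra*-/- experiments. Values are FPKM as deposited, fragment counts scaled to transcript length and library size. The study states only a sequencing depth it aimed for, and the depth reached in each library is not given in the sources used here. Bulk RNA cannot tell fewer cells of a type from less RNA per cell.

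*Esrra* itself measured 49.4, 73.5 and 104 FPKM in WT and 10.4, 9.42 and 8.72 FPKM in *Esrra*-/-, with no overlap (log2 fold change -2.92, SE 0.26, limma adjusted p = 0.0215). Over the alternatives its log2 fold change ran from -3.19 to -2.60 and its adjusted p from 0.0050 to 0.190, over 0.05 with a replicate block, with only the libraries holding Y-linked transcripts, and without WT replicate 2 or 3 or *Esrra*-/- replicate 1 or 3. Epithelial markers summed to 3753 to 5472 FPKM over the 6 libraries, 3 of 4 pancreatic acinar markers were listed at 0 throughout, and 6 mesenchymal and muscle markers summed to at most 5.41 FPKM. The 6 immune markers summed to 22.6 to 50.2 FPKM. The 8 villus enterocyte markers overlapped between genotypes (38452 to 62692 FPKM in WT, 47825 to 65991 in *Esrra*-/-), as did the 7 crypt markers (199.6 to 319 and 102 to 238 FPKM). The 3 Paneth cell markers did not (6478 to 13638 FPKM in WT, 1291 to 5726 in *Esrra*-/-). Replicate 3 of each genotype stood apart: these 2 libraries lacked Y-linked transcripts (sums of 0.0487 and 0.222 FPKM against 27.3 to 46.7 in the other 4), had the largest totals (999902 and 901171 FPKM against at most 818406), and had the highest villus marker sums of their groups. Within the 4 libraries with Y-linked transcripts, villus marker sums were 39988 and 38452 FPKM in WT and 58611 and 47825 in *Esrra*-/-, and crypt marker sums were 261 and 319 FPKM in WT and 162 and 238 in *Esrra*-/-. Between the other 2 libraries the villus sums were 62692 and 65991 FPKM and the crypt sums 199.6 and 102 FPKM. On both sides, villus markers were thus higher and crypt markers lower in *Esrra*-/-.

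In *Esrra*-/- epithelium 10 of 16 genes for ATP synthase subunits and 3 of 13 genes for the cristae and the inner membrane were called lower. The difference between these groups was not tested, and without WT replicate 3, *Esrra*-/- replicate 1 or *Esrra*-/- replicate 2 the counts were 1 and 3. Without WT replicate 3 those 3 included *Chchd6* in place of *Chchd3*. The comparison was made with limma on log2(FPKM + 0.1) over the 10596 genes with a mean above 1 FPKM. A gene was called at an unadjusted p under 0.05 with a log2 fold change beyond 0.58 in size. Of the 34 genes tested, 13 were called lower, against 3.28% of all genes tested. None was called higher, against 1.35% of all genes. Without the fold limit 18 were lower at an unadjusted p under 0.05 (6.49% of all genes) and none was higher (4.30% of all genes). Their median log2 fold change was -0.52, beside 0.03 over all genes tested. In 19 genes every *Esrra*-/- library lay below every WT library (9.14% of all genes), in 1 every *Esrra*-/- library lay above (8.45% of all genes), and in 14 the groups overlapped. No gene of the set reached an adjusted p under 0.05 (Benjamini-Hochberg), which 4 genes, 0.0378% of those tested, did. These are therefore calls at an unadjusted threshold.

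**Figure D1:**
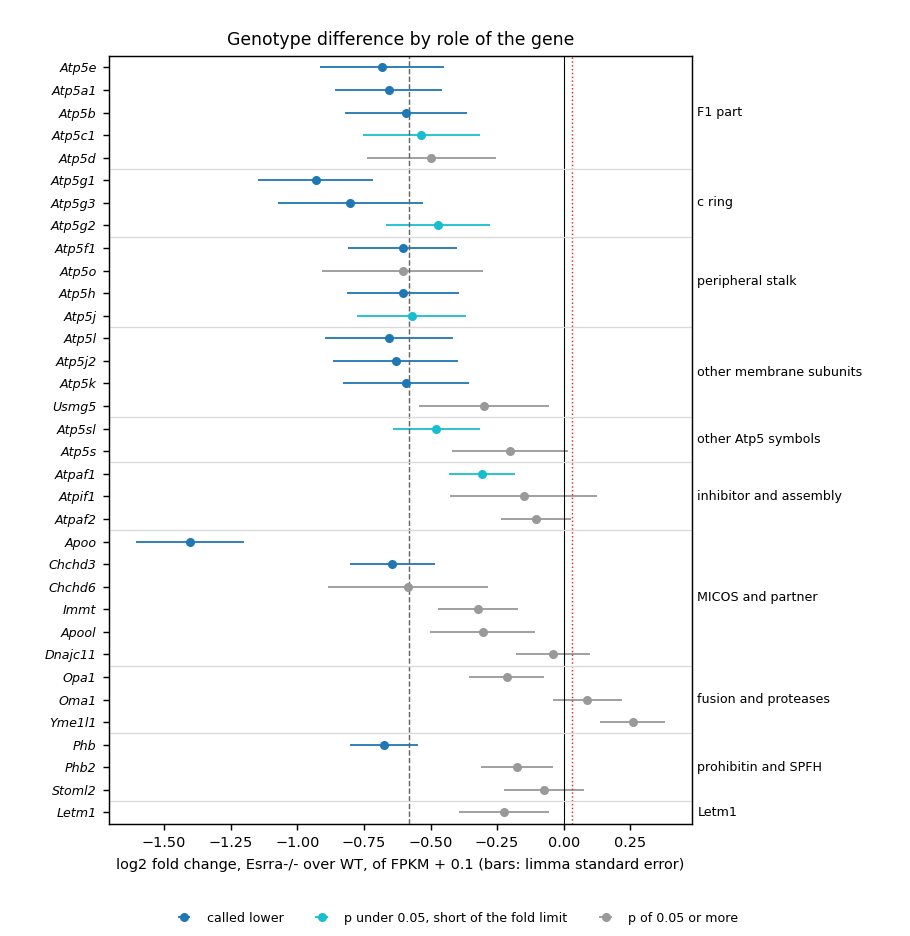
Log2 fold change (*Esrra*-/- over WT, of FPKM + 0.1) of the 34 genes tested, grouped by role, with limma standard errors as bars, the fold limit of -0.58 as a dashed line and the median of all genes tested (0.03) as a dotted red line. All 16 ATP synthase subunit genes lie between -0.93 and -0.30, whereas the 13 cristae and inner-membrane genes run from -1.40 (*Apoo*) to 0.26 (*Yme1l1*).

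The 16 nuclear genes for ATP synthase subunits that the rule caught gave 10 of the 13 calls. All 16 had a negative log2 fold change, as had 4842 of all 10596 genes tested. Of the 16, 13 were lower at the unadjusted threshold (6.49% of all genes). In 12 every *Esrra*-/- library lay below every WT library (9.14% of all genes), as in 45 of the 63 tested genes of complexes I to IV. Summed, the 16 genes made up 1.11, 1.02 and 1.17% of all FPKM in the WT libraries and 0.760, 0.776 and 0.857% in the *Esrra*-/- libraries. By this measure too, every *Esrra*-/- library lay below every WT library.

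In the F1 part, 3 of 5 genes were called lower, against 3.28% of all genes tested. *Atp5b* (chr10:127520329-127527447 in mm9), which encodes the catalytic beta subunit, measured 1080.1, 1091 and 1411 FPKM in WT and 686, 725 and 979 FPKM in *Esrra*-/-. The groups did not overlap, but the highest *Esrra*-/- library came close to the lowest WT library. The *Esrra*-/- mean was 66.7% of the WT mean, and the log2 fold change was -0.59 (SE 0.23, limma adjusted p = 0.423). *Atp5a1*, for the alpha subunit, measured 592, 579 and 717 FPKM in WT and 366, 353 and 485 FPKM in *Esrra*-/-. Its groups were also separate, with a log2 fold change of -0.66 (SE 0.20, limma adjusted p = 0.344). *Atp5e*, for the epsilon subunit of the central stalk, fell by 0.68 on the log2 scale, from 268 ± 78.0 to 164 ± 22.6 FPKM (SD, n = 3). *Atp5c1*, for the gamma subunit that forms the rotating shaft, was 506 ± 109 FPKM in WT and 347 ± 59.2 FPKM without ESRRA (SD, n = 3). It passed the unadjusted p but not the fold limit, with a log2 fold change of -0.53. *Atp5d*, for the delta subunit, was 738 ± 164 and 523 ± 118 FPKM in WT and *Esrra*-/- (SD, n = 3) and did not pass. Its *Esrra*-/- replicate 3 lay inside the WT range.

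The c ring is made of a single protein that 3 genes encode with different import signals. All 3 were lower at the unadjusted p (6.49% of all genes), and 2 were called lower (3.28% of all genes). *Atp5g1* (chr11:95930166-95936984 in mm9) measured 574, 579.5 and 796 FPKM in WT and 310.2, 302 and 408 FPKM in *Esrra*-/-. All WT libraries lay well above all *Esrra*-/- libraries, the *Esrra*-/- mean was 52.3% of the WT mean, and the log2 fold change of -0.93 (SE 0.22, limma adjusted p = 0.272) was the largest among the subunits. *Atp5g3* measured 662, 648 and 1104 FPKM in WT and 423, 379 and 558 FPKM in *Esrra*-/-. Its groups were separate as well, and the log2 fold change was -0.80 (SE 0.27, limma adjusted p = 0.387). *Atp5g2* measured 229, 256 and 342 FPKM in WT and 184, 187 and 218 FPKM in *Esrra*-/-. Here the groups nearly touched, and the log2 fold change of -0.47 (SE 0.19, limma adjusted p = 0.444) stayed short of the fold limit.

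The summed FPKM of these 3 genes was 1465, 1483 and 2242 in WT and 917, 868 and 1184 in *Esrra*-/-. Within that sum *Atp5g1* supplied 39.1, 39.1 and 35.5% in WT and 33.8, 34.8 and 34.4% in *Esrra*-/-, so that its share was lower in every *Esrra*-/- library. *Atp5g2* supplied 15.7, 17.3 and 15.3% in WT and 20.1, 21.5 and 18.4% in *Esrra*-/-, higher in every one. The share of *Atp5g3* overlapped between the genotypes (46.0 ± 2.87% and 45.6 ± 1.79%, SD, n = 3). These shares carry no test.

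Promoter sequences were read for motifs that ESRRA and related receptors recognise, because many of these genes moved together. RefSeq promoters (GRCm38.p6, from 250 bases before to 50 bases after the gene start) were found for 32 of the 35 genes. The extended motif TCAAGGTCA and its core AAGGTCA, which every extended match also contains, were searched on both strands. The core occurred in promoters of 6 of the 32 genes (18.8%), against 5.38% of the 27025 genes and 4.72% of the 32851 promoters in the RefSeq table, and in 4 of the 12 genes called lower with a promoter in the table (33.3%). The extended motif occurred in 1 of the 32, *Atp5g3*, against 0.466% of all genes and 0.423% of all promoters. The stretches around the matches are shown for these genes, 5′ to 3′ on the strand of the gene with the motif in capitals, and all lie on the minus strand in mm9:
Atp5g3, chr2:73749397-73749465, the extended motif in reverse orientation, its first base 52 bases before the gene start: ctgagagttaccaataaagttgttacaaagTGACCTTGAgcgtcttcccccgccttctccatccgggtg
Atp5l, chr9:44728826-44728868, first base 13 bases before the start: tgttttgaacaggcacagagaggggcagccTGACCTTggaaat
Chchd6, chr6:89545781-89545847, first base 171 bases before the start: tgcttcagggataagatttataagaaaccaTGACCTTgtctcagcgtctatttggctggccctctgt
Atpif1, chr4:132091532-132091579, first base 239 bases before the start: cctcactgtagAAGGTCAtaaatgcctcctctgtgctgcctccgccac
Atp5e, chr2:174289562-174289588, within the transcribed bases: tactcaggccTGACCTTcctgctgccg
Atp5k, chr5:108863379-108863405, within the transcribed bases: ttccggcgcgAAGGTCAcggacaaaat
Of these 6 genes, *Atp5g3*, *Atp5l*, *Atp5e* and *Atp5k* were called lower, *Chchd6* and *Atpif1* were not, and the windows of *Atp5g1* and *Apoo*, which moved most, hold neither string. Distances are to the RefSeq start. In GENCODE M1 *Atpif1* spans chr4:132086470-132089574 on the minus strand of mm9, so by that annotation its match lies farther upstream. A match describes letters in a window and says nothing of binding.

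In the peripheral stalk 2 of 4 genes were called lower (3.28% of all genes tested). *Atp5f1*, for subunit b, was 253 ± 49.1 FPKM in WT against 166 ± 29.8 FPKM without ESRRA (SD, n = 3), a log2 fold change of -0.61. *Atp5h*, for subunit d, was 477 ± 107 and 311 ± 39.6 FPKM (SD, n = 3), a log2 fold change of -0.60. *Atp5j*, for coupling factor 6, passed the unadjusted p with a log2 fold change of -0.57, just short of the fold limit. *Atp5o*, for the oligomycin sensitivity protein that joins stalk and F1, measured 460.4, 391 and 672 FPKM in WT and 299, 247 and 466 FPKM in *Esrra*-/-. Its log2 fold change was as large (-0.60), but the groups overlapped through *Esrra*-/- replicate 3 and it did not pass.

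Of the other membrane subunits, which include those that join enzymes into dimers, 3 of 4 were called lower (3.28% of all genes tested). *Atp5l* (subunit g), *Atp5j2* (subunit f) and *Atp5k* (subunit e) had log2 fold changes of -0.66, -0.63 and -0.59. *Atp5l* measured 427, 505 and 697 FPKM in WT and 314, 296 and 413 FPKM in *Esrra*-/-. *Atp5j2* measured 543, 576 and 799 FPKM in WT and 361, 364 and 512 FPKM in *Esrra*-/-. Neither overlapped between genotypes. For *Atp5k*, *Esrra*-/- replicate 3 (233 FPKM) just exceeded WT replicate 1 (232 FPKM). *Usmg5*, for the small subunit DAPIT found in dimers, measured 1201, 1281 and 1634 FPKM in WT and 1005, 957 and 1407 FPKM in *Esrra*-/-. It overlapped between genotypes and had the smallest log2 fold change of the 16 (-0.30, 95% interval -0.87 to 0.27). Relative to *Atp5b* in the same library, *Usmg5* was higher in all *Esrra*-/- libraries (1.41 ± 0.0773) than in WT (1.15 ± 0.0322, SD, n = 3). That ratio was picked after the values were seen. Subunits a and A6L are encoded in mitochondrial DNA. Their transcripts, *mt-Atp6* (log2 fold change -0.34, 95% interval -1.39 to 0.70) and *mt-Atp8* (-0.19, 95% interval -1.03 to 0.66), varied widely between libraries and did not pass.

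**Figure D2:**
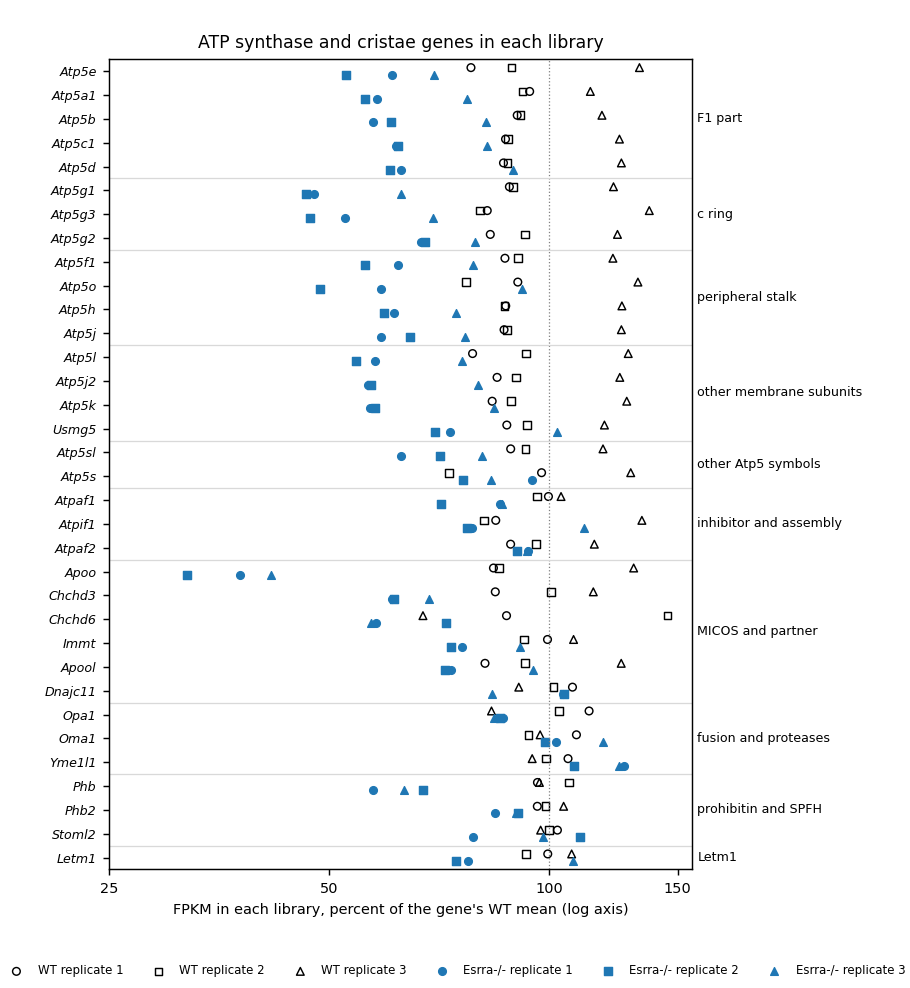
FPKM of each of the 34 genes in each library as a percentage of that gene's WT mean (log axis, open symbols WT, filled symbols *Esrra*-/-, symbol shape giving the replicate). *Apoo* lies farthest to the left at 37.1% of its WT mean, and replicate 3 (triangles) is the highest of its genotype for all 16 subunit genes.

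The inhibitor and the assembly factors gave no call. *Atpif1* encodes the inhibitor that binds F1 and blocks ATP hydrolysis. It measured 916, 882 and 1451 FPKM in WT and 848, 836 and 1208 FPKM in *Esrra*-/-. The groups overlapped, and the log2 fold change was -0.15 (SE 0.28, 95% interval -0.80 to 0.50, limma adjusted p = 0.869), an interval that holds both 0 and the value of *Atp5b*. Its sign turned without WT replicate 3 (0.08). The FPKM ratio of *Atpif1* to *Atp5b* was 0.848, 0.808 and 1.03 in WT and 1.24, 1.15 and 1.23 in *Esrra*-/-. It was thus higher in every *Esrra*-/- library than in any WT library, a description with no test. *Atpaf1*, for the factor that assists the beta subunit in F1 assembly, measured 13.3, 12.8 and 13.8 FPKM in WT and 11.4, 9.46 and 11.5 FPKM in *Esrra*-/-. The groups were separate, and it passed the unadjusted p with a small log2 fold change of -0.31. *Atpaf2*, which acts on the alpha subunit, did not pass (-0.10).

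Of the remaining *Atp5* symbols, *Atp5sl* (29.9 ± 4.85 FPKM in WT, 21.4 ± 2.74 FPKM without ESRRA, SD, n = 3) passed the unadjusted p with a log2 fold change of -0.48 and *Atp5s*, for factor B, did not pass (-0.20). *Atp5l-ps1*, a near copy of *Atp5l* with which reads may be shared, was listed at 0 in 5 libraries and at 0.3998 FPKM in WT replicate 2, and was not tested.

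**Figure D3:**
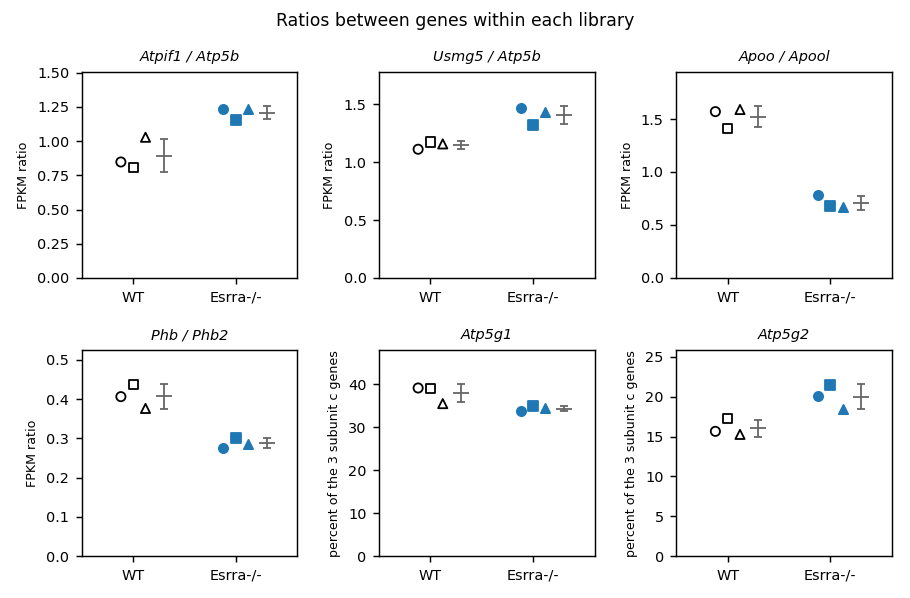
FPKM ratios and shares in each library (open symbols WT, filled symbols *Esrra*-/-, crossbars mean ± SD of 3 libraries). The ratios of *Usmg5* to *Atp5b*, *Apoo* to *Apool* and *Phb* to *Phb2* were chosen after the values were seen. The share of *Atp5g3*, which overlapped between genotypes, is not drawn, so the lack of overlap in the panels follows in part from their choice. *Atpif1* and *Usmg5* are higher relative to *Atp5b* in *Esrra*-/-, *Apoo* relative to *Apool* and *Phb* relative to *Phb2* are lower, and among the subunit c genes the share of *Atp5g1* is lower and that of *Atp5g2* higher.

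Among the 13 cristae and inner-membrane genes, 3 were called lower (*Apoo*, *Phb* and *Chchd3*), where 3.28% of all genes tested were. The median log2 fold change of the 13 was -0.22, beside 0.03 over all genes tested. The largest difference of the whole set was in *Apoo*, which encodes the MICOS subunit MIC26 (chrX:91612456-91662432 in mm9). It measured 38.9, 39.6 and 60.5 FPKM in WT and 17.5, 14.8 and 19.3 FPKM in *Esrra*-/-. The lowest WT library was above the highest *Esrra*-/- library by a wide margin, and the log2 fold change was -1.40 (SE 0.20, limma adjusted p = 0.0925), the 22nd smallest p of all genes tested. *Apool*, for the related subunit MIC27, measured 24.8, 28.1 and 38.04 FPKM in WT and 22.3, 21.8 and 28.8 FPKM in *Esrra*-/-. It overlapped between genotypes and did not pass (log2 fold change -0.30, 95% interval -0.77 to 0.16). The ratio of *Apoo* to *Apool*, chosen after the values were seen, was 1.57, 1.41 and 1.59 in WT and 0.785, 0.678 and 0.668 in *Esrra*-/-. *Apoo* was thus the more abundant of these genes per length in every WT library and the less abundant in every *Esrra*-/- library.

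The other MICOS genes were less uniform. *Chchd3*, for MIC19, measured 103, 123 and 140.1 FPKM in WT and 74.4, 74.7 and 83.4 FPKM in *Esrra*-/-, with separate groups and a log2 fold change of -0.64 (SE 0.16, limma adjusted p = 0.289). *Immt*, for the core organiser MIC60, measured 131, 122 and 142 FPKM in WT and 99.9, 96.6 and 120.1 FPKM in *Esrra*-/-. Its groups did not overlap, but the log2 fold change of -0.32 (SE 0.15, 95% interval -0.67 to 0.03, limma adjusted p = 0.4998) passed neither threshold. *Chchd6*, for MIC25, was low, at 2.14, 3.56 and 1.64 FPKM in WT and 1.42, 1.77 and 1.39 FPKM in *Esrra*-/-. It overlapped and did not pass (-0.58). *Dnajc11*, for a partner linking MICOS to the outer membrane, had a log2 fold change of -0.04.

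The fusion machinery gave no call. *Opa1* measured 25.9, 23.5 and 19.1 FPKM in WT and 19.8, 19.6 and 19.2 FPKM in *Esrra*-/-. WT replicate 3 was the lowest of all 6 libraries, the reverse of its place among the subunit genes, and the log2 fold change was -0.21 (SE 0.14, 95% interval -0.55 to 0.12, limma adjusted p = 0.613). The proteases that cleave OPA1 were the only tested genes of the set with a higher mean log2 value in *Esrra*-/-, although the sign of *Oma1* turned when only libraries with Y-linked transcripts were used. *Yme1l1* measured 23.2, 21.6 and 20.7 FPKM in WT and 27.7, 23.6 and 27.2 FPKM in *Esrra*-/-, the one gene whose *Esrra*-/- values all lay above WT, but it did not pass (0.26, 95% interval -0.03 to 0.55). *Oma1* had a log2 fold change of 0.09.

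Prohibitins form ring-shaped scaffolds in the inner membrane from PHB and PHB2, and only the first passed the test. *Phb* measured 75.8, 83.8 and 76.3 FPKM in WT and 45.1, 52.9 and 49.8 FPKM in *Esrra*-/-. The libraries of each genotype lay close together, WT replicate 3 did not stand above the others, and the log2 fold change was -0.67 (SE 0.13, limma adjusted p = 0.195). *Phb2* measured 186, 191 and 203 FPKM in WT and 163, 175 and 174 FPKM in *Esrra*-/-. Every *Esrra*-/- value was below WT, yet the log2 fold change was only -0.18 (95% interval -0.49 to 0.14) and did not pass. The *Phb* to *Phb2* ratio, also chosen after the values were seen, was 0.407 ± 0.0306 in WT and 0.288 ± 0.0128 in *Esrra*-/- (SD, n = 3). *Stoml2*, for a related membrane scaffold protein, and *Letm1*, for an inner-membrane ion transport protein, had log2 fold changes of -0.08 and -0.22 and did not pass.

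Among 19 further genes for partners of ATP synthase and the cristae, 5 were called lower and none higher (3.28% and 1.35% of all genes tested), with a median log2 fold change of -0.30. *Mtx2* and *Samm50*, whose outer-membrane products bridge to MICOS, had log2 fold changes of -0.86 (SE 0.11, limma adjusted p = 0.0826) and -0.67 (SE 0.15, limma adjusted p = 0.247). *Mtx2* measured 14.6, 13.97 and 15.8 FPKM in WT and 7.80, 7.78 and 8.65 FPKM in *Esrra*-/-, and both groups were tight. *2010107E04Rik*, *Chchd10* and the low *Slc25a4* were the other three called. The outer-membrane fusion genes *Mfn1* (0.12) and *Mfn2* (0.06) did not pass, nor did *Slc25a3* (-0.12), for the phosphate carrier that supplies ATP synthase. Of 63 tested genes of complexes I to IV, 38 were called lower and 1, *Cox6a2*, higher, with a median of -0.62 close to that of the ATP synthase subunits (-0.60). Of 76 tested mitochondrial ribosome genes, 7 were called lower and none higher, with a median of -0.21. These counts too stand beside 3.28% lower and 1.35% higher over all genes tested. Without WT replicate 3 the 38 genes of complexes I to IV called lower became 18, where 3.78% of all genes were called lower.

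Replicates of a genotype were not alike for ATP synthase. Replicate 3 was the highest library of its genotype for all 16 subunit genes in both genotypes, and WT replicate 3 was the highest of all 6 for 26 of the 34 genes. As a median over the 16 genes, log2 deviations from each gene's mean over the 6 libraries were 0.10, 0.15 and 0.65 in WT and -0.43, -0.47 and -0.03 in *Esrra*-/-. Over the 13 cristae genes they were 0.11, 0.07 and 0.16 in WT and -0.25, -0.10 and -0.06 in *Esrra*-/-, with a smaller deviation in WT replicate 3.

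**Figure D4:**
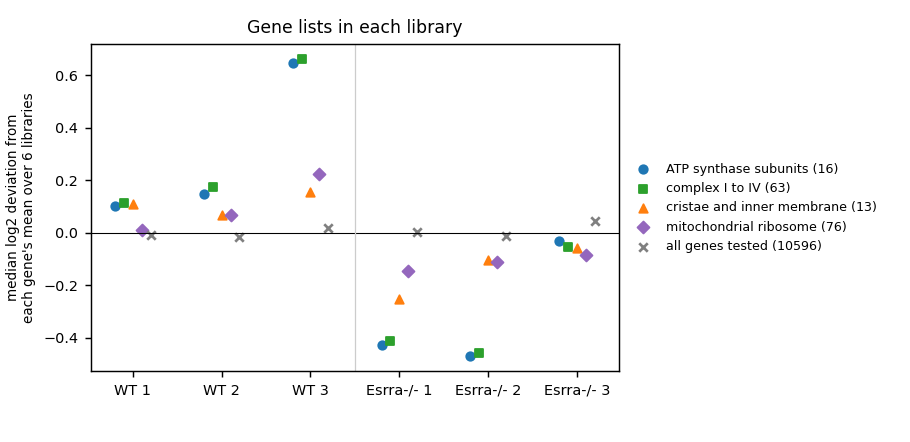
Median log2 deviation of each gene list from each gene's mean over 6 libraries, by library, with the number of genes in parentheses. ATP synthase subunits (0.65 in WT replicate 3, -0.03 in *Esrra*-/- replicate 3) and complexes I to IV (0.66 and -0.06) run together, while all genes tested stay between -0.02 and 0.04.

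The difference between genotypes was present on both sides of this divide. Among the 4 libraries with Y-linked transcripts the median log2 difference of the 16 subunit genes was -0.59, and between the 2 libraries without them, 1 per genotype, it was -0.64. All 16 were lower in *Esrra*-/- in each case, where 48.2% and 45.7% of all genes tested were (medians 0.01 and 0.04). For the 13 cristae genes the medians were -0.33 (11 lower) and -0.22 (8 lower), the latter from 1 library against 1 and nearer to the share of all genes. With the presence of Y-linked transcripts as a covariate in limma, *Apoo* (adjusted p = 0.0389) and *Atp5g1* (adjusted p = 0.0450) passed the adjusted threshold, which 0.491% of all genes tested then did. Over all alternatives run, their adjusted p from limma ranged from 0.0270 to 0.473 and from 0.0438 to 0.762. Sex, total FPKM and villus marker level cannot be told apart in these 2 libraries, and the part of the villus, crypt and Paneth marker differences in the results above was not tested.

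The number of calls depended on single libraries and on scaling. Leaving out WT replicate 3, *Esrra*-/- replicate 1 or *Esrra*-/- replicate 2 left 4 of the 34 genes called lower in each case, with 1 subunit gene among them, where 3.78%, 2.38% and 5.05% of all genes were called lower. Leaving out *Esrra*-/- replicate 3 left 17, where 3.16% of all genes were, and leaving out WT replicate 1 or 2 left 14 and 11 (3.56% and 2.65% of all genes). *Apoo*, *Phb* and *Atp5g1* were called lower in all 6 of these fits, *Chchd3* in 5 (not without WT replicate 3, -0.54), *Atp5a1* and *Atp5g3* in 3 each, and *Atp5b* in 1. The low *Chchd6*, not called with all 6 libraries, was called lower without WT replicate 3 (-0.82). Scaling every library to the same total FPKM left 3 genes called lower, 2 of them subunit genes, where 1.26% of all genes were. The number lower at an unadjusted p under 0.05 was then 19 (2.35% of all genes), and all genes tested shifted to a median log2 fold change of 0.14, so that the median of -0.40 over the 34 genes is read against that value.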

How the data were processed

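Epithelial RNA of 6 mice was sequenced from TruSeq libraries, per the labels. The authors deposited 1 table of FPKM values per gene and library, computed with DESeq2 per the study's methods and scaled for transcript length and library size. The library totals differ (707094 to 999902 FPKM) while the medians of the genes tested are near each other (9.88 to 10.15 FPKM), so the values are not scaled to a fixed total, and the scaling factors are not given in the sources used here. Per the submitters' notes the tools were FastQC 0.11.3, kallisto (given as 2.1.0) and DESeq2 (given as 2.2.1) with mm9, and the annotation behind the FPKM table is not given in the sources used here. A second table of the authors' own fold changes and p-values was not used. Raw counts were not used here, and no interval for counting error is given. Of the lowest FPKM values, 58.3 to 66.2% lay at small whole-number ratios between libraries (within 0.005 on the log2 scale), but whole reads were not recovered from them here.

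Genes with a mean above 1 FPKM over the 6 libraries (10596 of 22611) were fitted on log2(FPKM + 0.1), a scale that understates changes of low genes, with limma 3.58.1 (R 4.3.3, lmFit and eBayes with trend) and no covariate, and p-values were adjusted by Benjamini-Hochberg over all genes tested. Calls needed both a size over 0.58 on the log2 scale and a p, before adjustment, under 0.05, after the thresholds of the study. A two-sided exact permutation of 3 against 3 libraries cannot fall below p = 0.1, the value *Esrra* gave. The p-values measure the spread between 3 mice per genotype. The labels do not give replicate numbers as pairs. Correlations of deviations between same-numbered libraries were 0.01, 0.26 and 0.38. They do not settle whether samples were paired, and the fit used no pairing.

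The rule for the genes names symbols and uses no measured value, but that rule and the lists were drawn up with earlier results of these data known. Every gene of the set is named at least once. Values of all libraries, the log2 fold change, its SE and the adjusted p are given for *Esrra*, for the 5 smallest p-values, and for *Atp5b*, the 3 subunit c genes, *Atpif1*, *Immt* and *Opa1*. Gene positions are from GENCODE M1 on mm9. Promoters of RefSeq were searched with Python 3.11.15, and each printed stretch was placed in mm9 by its single exact match. Alternatives covered scaling, pseudocount, filter, variance trend, replicate block, Y-linked transcripts and leaving out each library. Scaling to equal total FPKM was added after the data were seen.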

Additional observations from a re-analysis of the deposited data

How the results depend on the processing

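Of the values of single genes under the alternatives, 468 kept their direction and side of the threshold, 51 lost the call, 13 gained it and 12 changed sign. The 13 genes called lower became 7 under quantile normalization (3.06% of all genes tested) and 3 under equal total FPKM (1.26%). Under quantile normalization 22 were lower at an unadjusted p under 0.05 (7.34% of all genes), in place of 18, with a median log2 fold change of -0.45, so calls were lost at the fold limit. From 10 ATP synthase subunit genes the count fell to 4 under quantile normalization and 2 under equal total FPKM. The 3 cristae genes became 1 and the 38 genes of complexes I to IV became 21 under equal total FPKM. With the scaling as reported, calling by an adjusted p under 0.05 left 0 in each of these lists. That threshold was passed by 2 genes of the set under quantile normalization (0.302% of all genes) and 1 under equal total FPKM (0.0752%). Leaving out 1 library at a time gave 4 to 17 genes called lower, among them 1 to 14 subunit genes and 3 cristae genes each time. Of complexes I to IV, 18 to 50 genes were called lower. Over these fits 2.38 to 5.05% of all genes were called lower. At an unadjusted p under 0.05, 4 to 22 genes of the set were lower (3.92 to 7.42% of all genes). The 3 cristae genes were not always the same, as *Chchd6* (-0.82) replaced *Chchd3* (-0.54) without WT replicate 3. The cause was not tested.

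A replicate block gave 15 genes called lower in place of 13 (4.16% of all genes in place of 3.28%), with 24 in place of 18 at an unadjusted p under 0.05 (11.3% of all genes in place of 6.49%), and none at an adjusted p under 0.05. The numbers do not mark pairs in the labels. WT replicate 1 correlated best with *Esrra*-/- replicate 2 (0.18), but WT replicates 2 and 3 correlated best with their own numbers (0.26 and 0.38).

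Small differences changed sign. With only the libraries holding Y-linked transcripts the log2 fold change was 0.011 for *Atp5s*, 0.00071 for *Dnajc11* and -0.0089 for *Oma1*. Under equal total FPKM it was 0.011 for *Atpaf2*, 0.075 for *Dnajc11* and 0.040 for *Stoml2*. Leaving out 1 library moved *Atp5s* between -0.41 and 0.00018, *Atpaf2* between -0.19 and 0.0025, *Atpif1* between -0.32 and 0.080, *Dnajc11* between -0.11 and 0.067, and *Stoml2* between -0.18 and 0.058.

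The depth reached in each library is not given, so a gene as low as *Chchd6* (at most 3.56 FPKM) has an unmeasured counting error, and 3 mice per genotype leave intervals that hold both 0 and a marked fall for *Usmg5*, *Atpif1* and *Apool*.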
